A study of Mus musculus with 20 samples.

Results

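The genes described here are 9 genes of kidney phosphate handling: the sodium-phosphate cotransporter genes Slc34a1, Slc34a2, Slc34a3, Slc20a1 and Slc20a2, the scaffold gene Pdzk1, and the hormone receptor genes Kl (klotho), Fgfr1 and Pth1r. They were taken by symbol from the 55822 genes of a mouse kidney count table, and all 9 were found and had enough reads to be tested. The series measured poly(A) RNA of whole kidney by bulk RNA sequencing in 20 samples in 4 groups of 5. Per the labels these were male C57BL/6J mice, 8 weeks old, given their agent once a day for 6 administrations and killed on day 7. The 2 groups compared here are a control group given phosphate-buffered saline (PBS) and a group given puberulic acid, a tropolone compound of Penicillium moulds, at 1 mg per day. The remaining mice were given Choleste-Help, a dietary supplement, from a normal lot or from a toxic one. Their 10 columns carry names that do not say which lot they hold, and they were not analysed here. The series text names the oral route, and the protocol names oral gavage or intraperitoneal injection without saying which mouse had which. The labels number the samples within each group and do not state that each came from its own mouse. The p-values therefore measure the spread between these samples.

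The kidney sets the body's phosphate level by deciding how much filtered phosphate is taken back. Most of it is taken up in the proximal tubule by the type II cotransporters NaPi-IIa (Slc34a1) and NaPi-IIc (Slc34a3), which sit in the brush border on PDZ scaffold proteins such as PDZK1. Parathyroid hormone, through its receptor PTH1R, and the bone hormone FGF23, through FGF receptors with klotho as co-receptor, both lower this uptake by removing the transporters from the membrane.

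Total estimated counts ran from 18409877 to 24705587 per library. The marker genes named for kidney segments were present in the controls, and the proximal tubule list had a summed level of 11320 to 14600 CPM (depth-scaled counts, on library sizes corrected by trimmed mean of M-values factors, TMM). All 5 genes of the injured tubule list rose with puberulic acid, from a summed 10.2 to 22.8 CPM to a summed 1593 to 2832 CPM. Puberulic acid replicate 1 stood apart from replicates 2 to 5, nearer to the controls, with a proximal tubule sum of 2034 CPM against 1040 to 1137 CPM. Values without it are given where it ends a call or moves a value strongly.

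Of the 9 genes, 5 fell and 3 rose with puberulic acid, and Slc20a2 passed the test in neither direction. A gene was called at an adjusted p-value under 0.05 in edgeR (quasi-likelihood F-test, Benjamini-Hochberg adjustment over the 16266 genes tested). Of all genes tested, 65.3% were called, 34.2% higher and 31.1% lower, so that 8 calls among 9 genes are read against a background in which most genes changed. Slc34a1, Slc34a3, Pdzk1, Kl and Pth1r fell. Slc34a2, Slc20a1 and Fgfr1 rose. Control and treated ranges were fully apart for 4 of the genes that fell and for the 3 that rose. Of all genes tested 50.1% had ranges that were apart, 24% lower and 26.1% higher. The median log2 fold change of the 9 genes was -1.61, and that of all genes tested was 0.046.

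**Figure D1:**
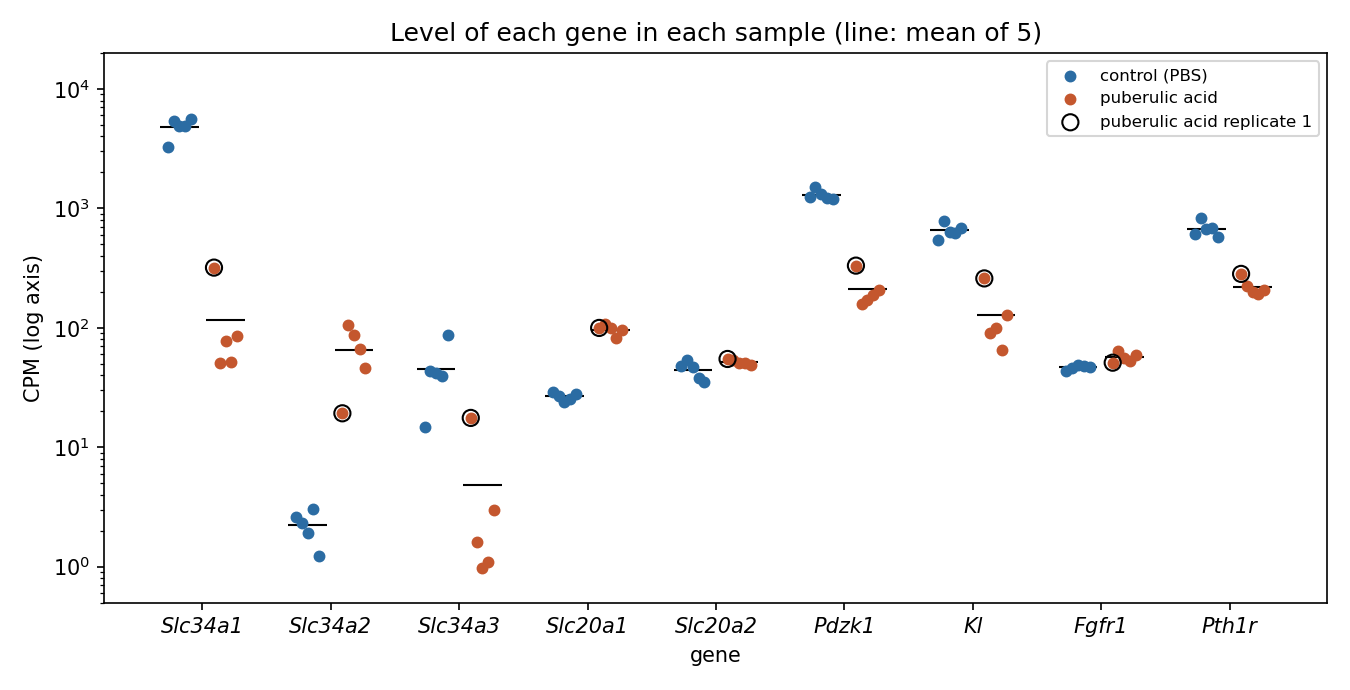
Level of each of the 9 genes in each sample, in CPM on a log axis, with 5 control (blue) and 5 puberulic acid (red) samples per gene, a line at the mean of each group and puberulic acid replicate 1 ringed. Slc34a1 lies between 3273 and 5612 CPM in the controls and between 51.2 and 319 CPM with puberulic acid, while Slc34a2 goes the other way, from 1.23 to 3.05 CPM up to 19.2 to 105 CPM.

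Slc34a1 (ENSMUSG00000021490), the gene of the main phosphate cotransporter of the proximal tubule, had the largest decrease of the 9. Its level in control replicates 1 to 5 was 3273, 5386, 4884, 4862 and 5612 CPM. In puberulic acid replicates 1 to 5 it was 319, 51.2, 77.6, 51.7 and 85.4 CPM. The ranges were far apart, and replicate 1 had 4.8 times the mean of the other 4 samples of its group. The log2 fold change was -5.36 ± 0.55 (SE, edgeR adjusted p = 4.86e-06), which is 41-fold lower. It ranked 10 from the lowest fold change of all genes tested. Leaving out puberulic acid replicate 1 gave -6.20.

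Slc34a3 (ENSMUSG00000006469), which encodes the second brush border cotransporter NaPi-IIc, fell too, but less evenly. The controls had 14.7, 43.2, 41.5, 39.2 and 87.6 CPM. The puberulic acid samples had 17.6, 1.62, 0.974, 1.1 and 2.99 CPM. Replicates 2 to 5 lay far below all controls, whereas replicate 1 lay above the lowest control, so the groups overlapped. This was a log2 fold change of -3.21 ± 0.78 (SE, edgeR adjusted p = 0.00328), and it was -4.75 without puberulic acid replicate 1 (adjusted p = 9.89e-06).

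Slc34a2 (ENSMUSG00000029188) encodes NaPi-IIb, the member of this family known from intestine and lung rather than from the proximal tubule. It was low in the controls, with 46, 44, 30, 49 and 19 counts, or 2.63, 2.32, 1.91, 3.05 and 1.23 CPM. With puberulic acid it had 19.2, 104.6, 87.9, 67.0 and 46.4 CPM. Every puberulic acid sample was above every control, and replicate 1 was again the one nearest to the controls. Its log2 fold change was 4.86 ± 0.44 (SE, edgeR adjusted p = 1.97e-06), or 29-fold higher, and 5.07 without puberulic acid replicate 1.

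The type III cotransporters, Slc20a1 (PiT-1) and Slc20a2 (PiT-2), are made in most cell types. Slc20a1 (ENSMUSG00000027397) was at 28.9, 26.7, 23.9, 25.6 and 28.1 CPM in the controls and at 99.7, 107.2, 98.9, 82.1 and 95.2 CPM with puberulic acid. The spread was small in both groups, and puberulic acid replicate 1 did not stand apart in this gene. This was a log2 fold change of 1.86 ± 0.09 (SE, edgeR adjusted p = 1.89e-08), or 3.63-fold higher. Slc20a2 (ENSMUSG00000037656) had 47.8, 53.4, 46.6, 37.6 and 35.1 CPM in the controls against 54.8, 53.9, 50.4, 50.4 and 49.2 CPM with puberulic acid. The ranges overlapped, and the log2 fold change of 0.23 ± 0.11 (SE) did not pass the test (edgeR adjusted p = 0.09). A change of setting gave a call: with libraries scaled to total counts it was 0.74 (adjusted p = 7.93e-05), and without control replicate 2 it was 0.30 (adjusted p = 0.0323).

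The 5 cotransporter genes together went from a summed 3367 to 5764 CPM in the controls to 252.2 to 510.5 CPM with puberulic acid. Within that sum the make-up changed. Slc34a1 took 97.6% ± 0.28 (SD, n = 5) of the cotransporter counts in the controls and 30.9% ± 18.5 (SD, n = 5) with puberulic acid, with 62.5% in replicate 1 and 16.1% to 30.6% in replicates 2 to 5. The share of Slc20a1 went from 0.565% ± 0.165 to 30.2% ± 6.08, that of Slc34a2 from 0.048% ± 0.022 to 21.5% ± 11.5 and that of Slc20a2 from 0.937% ± 0.305 to 16.3% ± 3.42 (n = 5 per group, SD). The share of Slc20a2 was larger while its own level passed the test in neither direction. Slc34a3 held 0.872% ± 0.395 and 1.15% ± 1.31 (n = 5 per group, SD), which is within their spread. Its treated mean rested on replicate 1, with 3.45% there and 0.309% to 1.07% in replicates 2 to 5. Without replicate 1 the difference turned from 0.282 to -0.291 percentage points. No test was made of these shares. With each count divided by the length of the gene's merged exons (GENCODE M21), the share of Slc34a1 was 97.1% in the controls and 33.4% with puberulic acid.

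**Figure D2:**
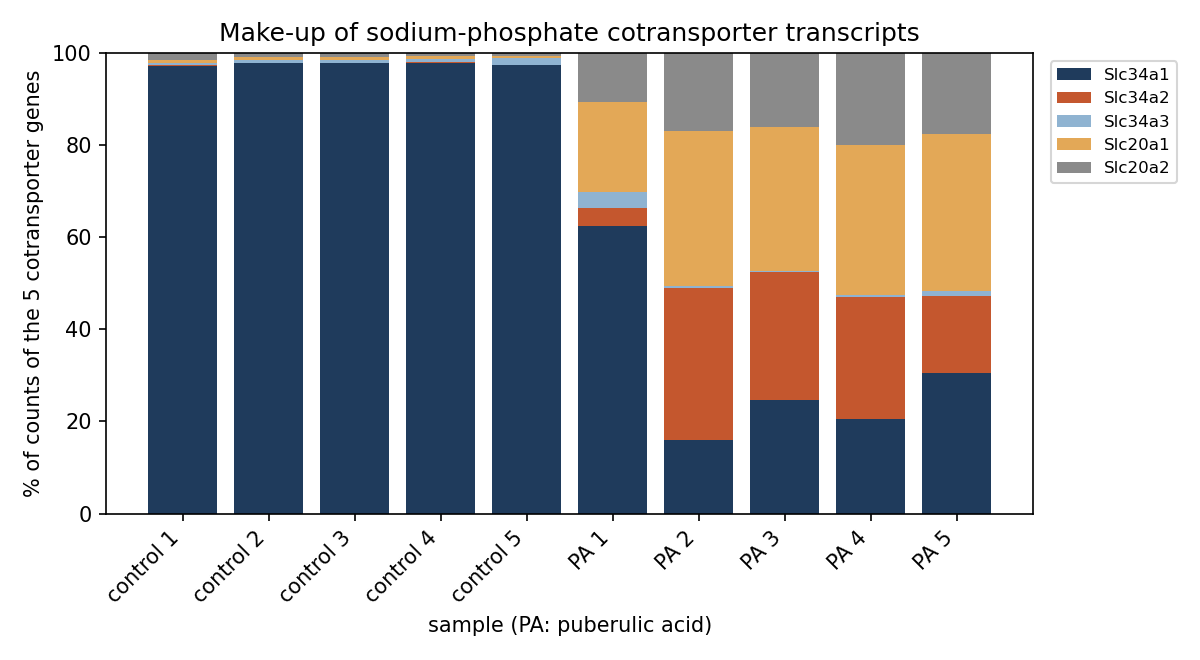
Share of each of the 5 sodium-phosphate cotransporter genes in their summed counts, in percent, one bar per sample. Slc34a1 fills 97.2% to 97.9% of every control bar, and with puberulic acid Slc20a1, Slc34a2 and Slc20a2 take most of the bar in replicates 2 to 5.

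A ratio of 2 genes within a library does not depend on how libraries are scaled, so 6 ratios were compared between the groups. Exact two-sided permutation tests were used, whose smallest p with 5 against 5 is 0.00794. The genes paired were chosen with earlier results of these data known. In the pairs Slc34a1 to Slc20a1 and Kl to Fgfr1, one gene fell and the other rose, each with ranges fully apart. For these pairs the smallest p was therefore fixed in advance, and it adds no support to the changes of the single genes. The control libraries held 178 counts of Slc34a1 for each count of Slc20a1 (geometric mean), and the puberulic acid libraries 0.925. This log2 ratio went from 7.47 ± 0.37 to -0.11 ± 1.06 (n = 5 per group, SD, exact permutation p = 0.00794, adjusted over the 6 ratios p = 0.0119). In puberulic acid replicate 1 the log2 ratio was 1.68, and in replicates 2 to 5 it lay between -1.07 and -0.16. Slc34a1 also fell more than Slc34a3: the log2 ratio of the 2 brush border cotransporters was 6.92 ± 0.64 in the controls and 5.16 ± 0.79 with puberulic acid (n = 5 per group, SD, exact permutation p = 0.0159, adjusted p = 0.019). For that pair the groups overlapped, with 6.00 in control replicate 5 and 6.29 in puberulic acid replicate 3. The log2 ratio of Slc20a1 to Slc20a2 rose by 1.61, from -0.71 ± 0.28 to 0.90 ± 0.12 (n = 5 per group, SD, exact permutation p = 0.00794, adjusted p = 0.0119), with no overlap.

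**Figure D3:**
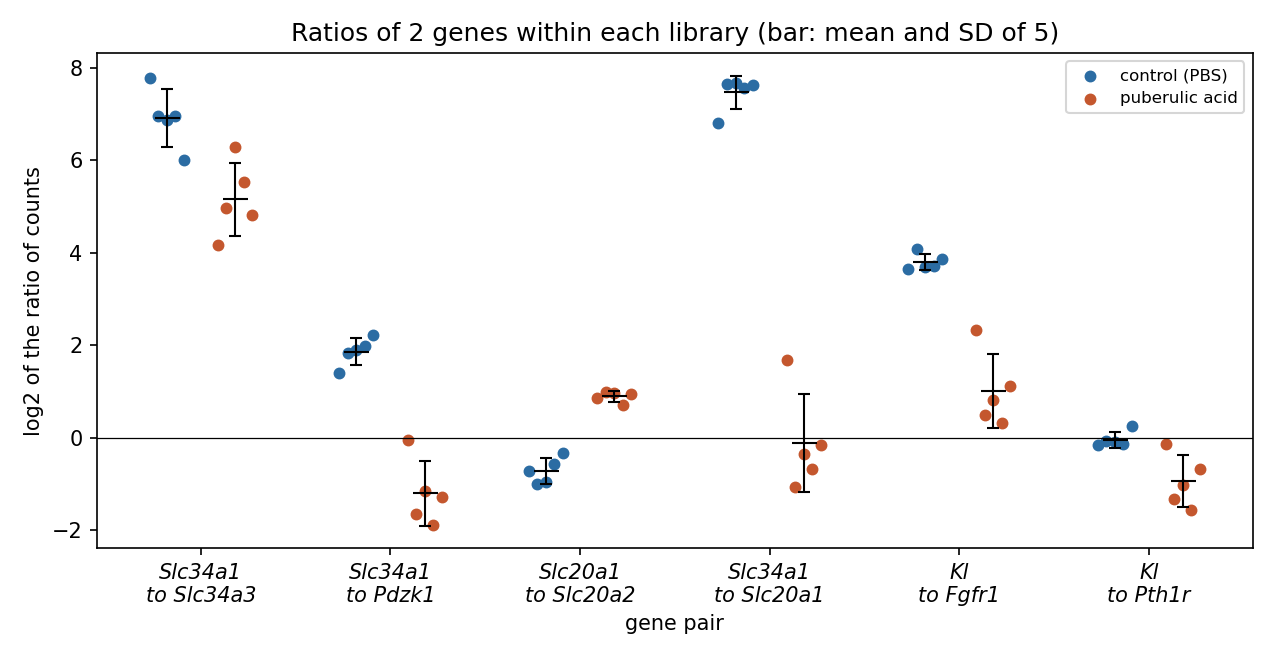
Log2 ratios of the counts of 2 genes within each library for the 6 pairs compared, with 5 control (blue) and 5 puberulic acid (red) samples and bars for the mean and SD. The ratio of Slc34a1 to Slc20a1 drops from 7.47 to -0.11, and the groups do not overlap for it.

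The regions around the transcription starts of genes that moved in opposite directions are shown for comparison. They are RefSeq promoter windows of the GRCm38.p6 build, from 250 bases before to 50 bases after an annotated start. They were found for 7 of the 9 genes. The counts rest on another build (GRCm39 per the submitters' processing notes), so these positions serve only for the sequences. Capitals mark matches, on either strand, to 4 short motifs: GTTAAT, a core of the palindromic site bound by HNF1 proteins, CAAAGTCCA, a form of the HNF4 element, TATAAA, the letters of the TATA box, and GGGCGG, the box bound by Sp1. The first pair fell and the second pair rose.
Slc34a1, chr13:55399398-55399697, plus strand: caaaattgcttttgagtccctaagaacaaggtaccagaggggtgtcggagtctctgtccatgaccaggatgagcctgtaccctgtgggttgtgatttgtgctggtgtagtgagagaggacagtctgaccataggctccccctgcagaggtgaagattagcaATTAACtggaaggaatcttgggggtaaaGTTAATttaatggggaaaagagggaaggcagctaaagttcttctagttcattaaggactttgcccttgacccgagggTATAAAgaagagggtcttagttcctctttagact
Pdzk1, chr3:96829815-96830114, plus strand: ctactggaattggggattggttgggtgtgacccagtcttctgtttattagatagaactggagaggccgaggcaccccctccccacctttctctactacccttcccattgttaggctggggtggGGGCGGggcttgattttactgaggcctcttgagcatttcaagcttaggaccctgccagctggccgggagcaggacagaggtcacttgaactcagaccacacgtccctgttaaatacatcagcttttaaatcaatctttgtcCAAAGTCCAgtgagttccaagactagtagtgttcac
Slc34a2, chr5:53049103-53049402, plus strand: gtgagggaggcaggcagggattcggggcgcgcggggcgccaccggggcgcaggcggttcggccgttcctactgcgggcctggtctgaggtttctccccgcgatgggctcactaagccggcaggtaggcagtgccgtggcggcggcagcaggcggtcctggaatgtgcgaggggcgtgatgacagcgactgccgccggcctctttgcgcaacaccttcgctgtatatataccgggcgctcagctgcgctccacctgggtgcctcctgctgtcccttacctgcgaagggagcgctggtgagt
Slc20a1, chr2:129198523-129198822, plus strand: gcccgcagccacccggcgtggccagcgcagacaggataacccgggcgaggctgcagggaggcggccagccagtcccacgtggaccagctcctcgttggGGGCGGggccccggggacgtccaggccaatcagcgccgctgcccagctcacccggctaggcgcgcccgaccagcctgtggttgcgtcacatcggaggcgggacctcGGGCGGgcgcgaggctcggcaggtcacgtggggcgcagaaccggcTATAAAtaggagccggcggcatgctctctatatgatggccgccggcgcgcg
The Slc34a1 window holds GTTAAT at 2 places, with first bases at -61 and -89 counted from the start at 0, and TATAAA at 16. Of all 32851 windows of this length, 7.1% hold GTTAAT and 13.6% hold TATAAA. The Pdzk1 window holds CAAAGTCCA at 14, which 0.475% of all windows hold, and GGGCGG at -127. The first Slc20a1 window holds GGGCGG at -152 and -46 and TATAAA at -1, and 35.7% of all windows hold GGGCGG. The Slc34a2 and Slc34a3 windows hold none of the 4 motifs in these letters, and nor do the second Pdzk1 window and the third Pth1r window. GGGCGG alone was found in the windows of Kl (3 places), in the first and second of Pth1r (4 places and 1 place) and in the second of Slc20a1 (1 place), so it occurs with genes that fell and with a gene that rose. The matches printed do not overlap each other, and they are descriptions of sequence only. The TATAAA matches, at 16 and -1, are not shown to act as TATA boxes of these starts.

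Pdzk1 (ENSMUSG00000038298), whose PDZ domains tether NaPi-IIa and other transporters in the brush border, fell with clear separation. The controls had 1242, 1507, 1313, 1225 and 1207 CPM, and the puberulic acid samples had 331.6, 159.4, 172.3, 189.4 and 207.6 CPM. Replicate 1 was the highest of its group but still far under the lowest control. This was a log2 fold change of -2.61 ± 0.19 (SE, edgeR adjusted p = 3.37e-07), a 6.12-fold decrease, and -2.86 without replicate 1. Slc34a1 fell more than its scaffold: the log2 ratio of Slc34a1 to Pdzk1 went from 1.87 ± 0.30 to -1.20 ± 0.70 (n = 5 per group, SD, exact permutation p = 0.00794, adjusted p = 0.0119).

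Kl (ENSMUSG00000058488) encodes klotho, which is made in the distal convoluted tubule and the proximal tubule and turns FGF receptors into receptors for FGF23. It was at 544.2, 787.7, 630.1, 626.2 and 687.9 CPM in the controls and at 259.1, 90.4, 99.3, 65.4 and 127.8 CPM with puberulic acid. No puberulic acid sample reached the controls, and replicate 1 kept 39.5% of the control mean where replicates 2 to 5 together kept 14.6%. The log2 fold change was -2.35 ± 0.32 (SE, edgeR adjusted p = 4.4e-05), a 5.1-fold decrease, and -2.80 without replicate 1.

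Fgfr1 (ENSMUSG00000031565), an FGF receptor that forms the FGF23 receptor together with klotho, went slightly the other way. The controls had 43.3, 46.4, 48.9, 47.6 and 46.8 CPM and the puberulic acid samples 51.0, 64.3, 56.4, 52.2 and 59.2 CPM. The groups did not overlap, though the lowest treated sample was close to the highest control. Its log2 fold change was 0.28 ± 0.08 (SE, edgeR adjusted p = 0.00888), or 1.22-fold higher, and it was 0.79 with libraries scaled to total counts. The co-receptor and receptor thus moved apart: the log2 ratio of Kl to Fgfr1 went from 3.80 ± 0.18 to 1.02 ± 0.80 (n = 5 per group, SD, exact permutation p = 0.00794, adjusted p = 0.0119), from 14 counts of Kl per count of Fgfr1 to 2.02. This p follows from the separate ranges of the single genes and is no further support.

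Pth1r (ENSMUSG00000032492), the parathyroid hormone receptor gene, had 609.8, 830.0, 672.9, 690.8 and 573.4 CPM in the controls and 282.7, 224.6, 200.7, 191.6 and 205.3 CPM with puberulic acid. The groups were clearly apart, and replicate 1 was again the highest treated sample. The log2 fold change was -1.61 ± 0.13 (SE, edgeR adjusted p = 8.78e-07), a 3.06-fold decrease. Kl fell more than Pth1r, with a log2 ratio of -0.043 ± 0.17 in the controls and -0.94 ± 0.56 with puberulic acid (n = 5 per group, SD, exact permutation p = 0.0238, adjusted p = 0.0238). In this ratio replicate 1, at -0.13, lay within the range of the controls.

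**Figure D4:**
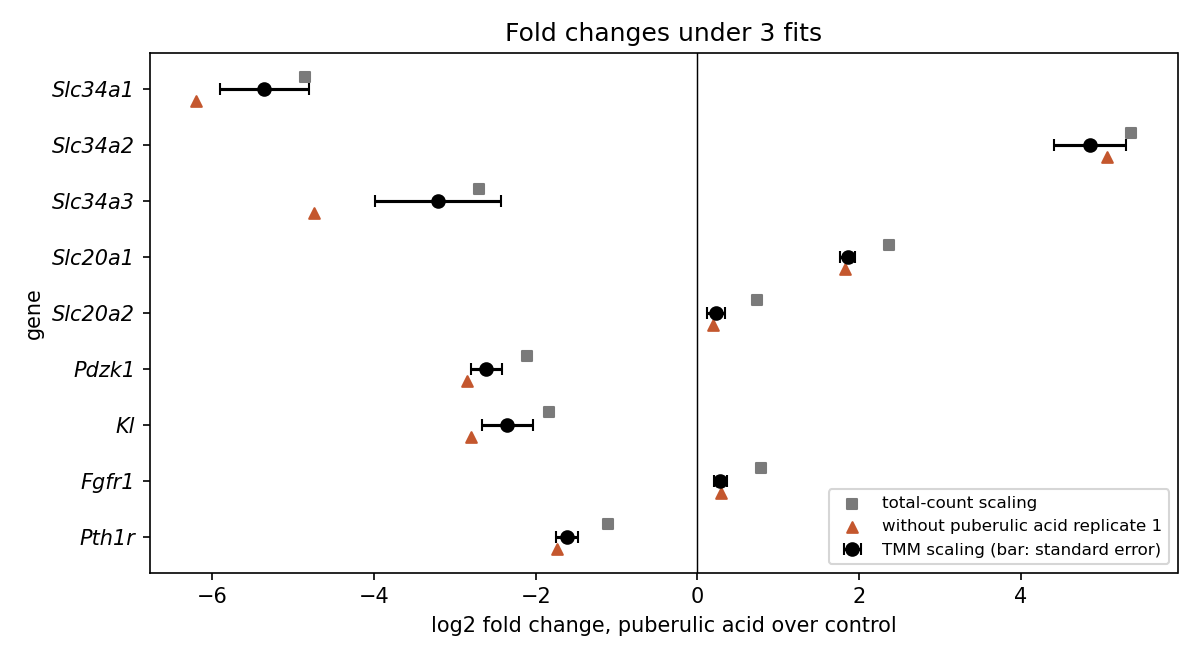
Log2 fold change of each gene, puberulic acid over control, with TMM scaling (black, bars for the standard error), with total-count scaling (grey squares) and without puberulic acid replicate 1 (red triangles). The 9 genes have the same sign in the 3 fits, and Slc20a2 moves from 0.23 to 0.74 with total-count scaling.

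Levels can be ranked across genes only per length. Per kilobase of merged exons, the order of the controls was Slc34a1 (1027 ± 196 CPM per kb), Pdzk1 (365 ± 34.6), Pth1r (231 ± 33.7), Kl (70.2 ± 9.65), Slc34a3 (19.2 ± 11.2), Slc20a2 (7.09 ± 1.22), Slc20a1 (4.77 ± 0.36), Fgfr1 (4.72 ± 0.21) and Slc34a2 (0.445 ± 0.139; SD, n = 5 for each). Among neighbours in this order, Slc34a3 and Slc20a2, and Slc20a1 and Fgfr1, had overlapping ranges. With puberulic acid the order was Pth1r (75.6 ± 12.5 CPM per kb), Pdzk1 (59.6 ± 19.5), Slc34a1 (25.02 ± 24.38), Slc20a1 (17.3 ± 1.65), Kl (13.8 ± 8.19), Slc34a2 (12.97 ± 6.72), Slc20a2 (8.33 ± 0.40), Fgfr1 (5.73 ± 0.54) and Slc34a3 (2.06 ± 3.04; SD, n = 5 for each). The ranges of all neighbours in this order overlapped except those of Slc20a2 and Fgfr1, and the range of Slc34a1, 10.9 to 68.2 CPM per kb, met those of every gene from Pth1r to Slc34a2. The place of Slc34a1 rested on replicate 1. Over replicates 2 to 5 the order was Pth1r (70.3 ± 4.76 CPM per kb), Pdzk1 (51.2 ± 5.89), Slc20a1 (17.2 ± 1.87), Slc34a2 (15.3 ± 5.04), Slc34a1 (14.2 ± 3.78), Kl (10.3 ± 2.76), Slc20a2 (8.20 ± 0.33), Fgfr1 (5.88 ± 0.51) and Slc34a3 (0.708 ± 0.391; SD, n = 4 for each). In these 4 samples Pth1r and Pdzk1 were apart from each other and from the rest, and the ranges from Slc20a1 to Slc20a2 overlapped from neighbour to neighbour. The lengths come from GENCODE M21 on GRCm38, not from the annotation behind the counts, and count all annotated exons.

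The genes whose pattern over the 10 samples lay closest to 3 of the 9 were sought by the root mean square difference of log2(CPM + 1), each gene set to 0 at its control mean, among 13198 named genes whose mean was 1 CPM or more. Closest to Slc34a1 were Miox (difference 0.386), Car14 (0.421), Slc22a6 (0.468), Slc22a28 (0.499) and G6pc (0.526), with log2 fold changes from -5.35 to -4.95. Miox begins the breakdown of inositol, and Slc22a6 encodes an organic anion transporter of the proximal tubule. Closest to Kl were Pdk2 (0.184), Mgat3 (0.207), Glyctk (0.218), Tln2 (0.230) and Aldh4a1 (0.230), all of them at -2.27 to -2.50. Closest to Slc20a1 were Dnajc5 (0.0803), Plet1 (0.103), Eif6 (0.104), Gstp3 (0.110) and Slc7a6 (0.129). Gstp3 is there because adding 1 CPM shrinks the change of a gene at 0.106 CPM in the controls and 2.91 CPM with puberulic acid. These are descriptions of level over 10 samples in 2 groups.

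A list of 51 other genes of phosphate handling, of which 40 were tested, had 20 genes that fell, 8 that rose and 12 that passed the test in neither direction. Of all genes tested 31.1% were called lower and 34.2% higher, so that the share of the list called in either direction was near the 65.3% of all genes. Its median log2 fold change was -0.37, against 0.046 for all genes tested. Scaling to total counts shifted the median of all genes to 0.56 and raised each of the 98 named and marker genes tested by 0.50 to 0.52 on the log2 scale. With it the split was 11 lower and 13 higher.

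Among the other transporters and scaffolds, 6 of the 8 genes tested fell and 0 rose, where 31.1% of all genes tested were called lower and 34.2% higher. With total-count scaling 4 fell and 1 rose. Slc17a1 and Slc17a3, organic anion transporters first described as phosphate transporters, fell from 602 ± 90.7 to 161 ± 40.4 CPM and from 642 ± 140 to 148 ± 32.3 CPM (n = 5 per group, SD), with log2 fold changes of -1.90 and -2.11. The PDZ scaffold genes Nherf1, Nherf2 and Pdzd3 fell with log2 fold changes of -1.13, -0.72 and -1.89, against -2.61 for Pdzk1. Ezr, which encodes the linker ezrin that ties the scaffold to actin, was at 369 ± 26.3 and 388 ± 25.9 CPM (n = 5 per group, SD) and did not pass the test (log2 fold change 0.071, edgeR adjusted p = 0.464). With total-count scaling it was called higher, at 0.58 (adjusted p = 3.71e-05). Xpr1, the phosphate exporter gene, fell from 89.2 ± 12.3 to 56.1 ± 10.4 CPM (n = 5 per group, SD), a log2 fold change of -0.67 (edgeR adjusted p = 0.000948). Slc17a2, a relative of Slc17a1 with 3 to 7 counts in the controls and 7 to 51 with puberulic acid, did not pass the count filter and was called higher in DESeq2 (1.38, adjusted p = 0.0372) and in edgeR with no filter (1.38, adjusted p = 0.0458), and without control replicate 3 or 4 or puberulic acid replicate 3 (1.51 to 1.57, adjusted p from 0.0133 to 0.0397). With total-count scaling neither Xpr1 (-0.16, adjusted p = 0.324) nor Nherf2 (-0.21, adjusted p = 0.374) was called.

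In the FGF23 and klotho list 6 of 13 genes tested rose and 5 fell, and with total-count scaling 8 rose and 2 fell. These counts are read against the 34.2% of all genes tested that were called higher and the 31.1% called lower, and nothing particular to the list is drawn from them. The other FGF receptor genes went against Fgfr1: Fgfr2, Fgfr3 and Fgfr4 fell, with log2 fold changes of -0.72, -1.34 and -1.25. Fgfr2 was not called with total-count scaling (-0.21, edgeR adjusted p = 0.0933). The list also holds Egr1, Dusp6, Spry2 and Spry4, which are known as genes that respond to ERK signalling. Egr1 went from 7.55 ± 3.18 to 138.1 ± 64.2 CPM (n = 5 per group, SD), a log2 fold change of 4.19 ± 0.42 (SE, edgeR adjusted p = 3.58e-06), and Dusp6 and Spry2 had log2 fold changes of 0.81 and 0.99. Spry4 was called at 0.52 (adjusted p = 0.0238) but not without control replicate 1 (0.44, adjusted p = 0.058), control replicate 2 (0.47, adjusted p = 0.0591), puberulic acid replicate 4 (0.42, adjusted p = 0.075) or puberulic acid replicate 5 (0.36, adjusted p = 0.0917). Adam10 and Adam17, genes of proteases that shed klotho from the cell surface, rose by 0.47 and 0.52 on the log2 scale. Bace1, another such protease gene, was at 0.35 (edgeR adjusted p = 0.071) and was called with total-count scaling (0.86, adjusted p = 0.000493), without control replicate 4 (0.42, adjusted p = 0.0449) and without puberulic acid replicate 4 (0.41, adjusted p = 0.0326). Frs2, an adaptor gene of FGF receptors, was at 0.16 (edgeR adjusted p = 0.182) and was called with total-count scaling only (0.67, adjusted p = 8.6e-05). The hormone gene Fgf23 itself had 0 counts in all 10 libraries, and Klb, the beta-klotho gene, had at most 2 counts in a control and 13 in a puberulic acid library. The enzyme genes Galnt3 and Fam20c, whose products modify FGF23, fell by 0.50 and 0.72 on the log2 scale. Galnt3 was at 0.012 with total-count scaling. The Fam20c call (adjusted p = 0.0398) was lost without control replicate 3, 4 or 5 or puberulic acid replicate 1 or 4 (-0.73 to -0.58, adjusted p from 0.0511 to 0.0932), with the replicate block (-0.70, adjusted p = 0.0758) and with total-count scaling (-0.20, adjusted p = 0.534).

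**Figure D5:**
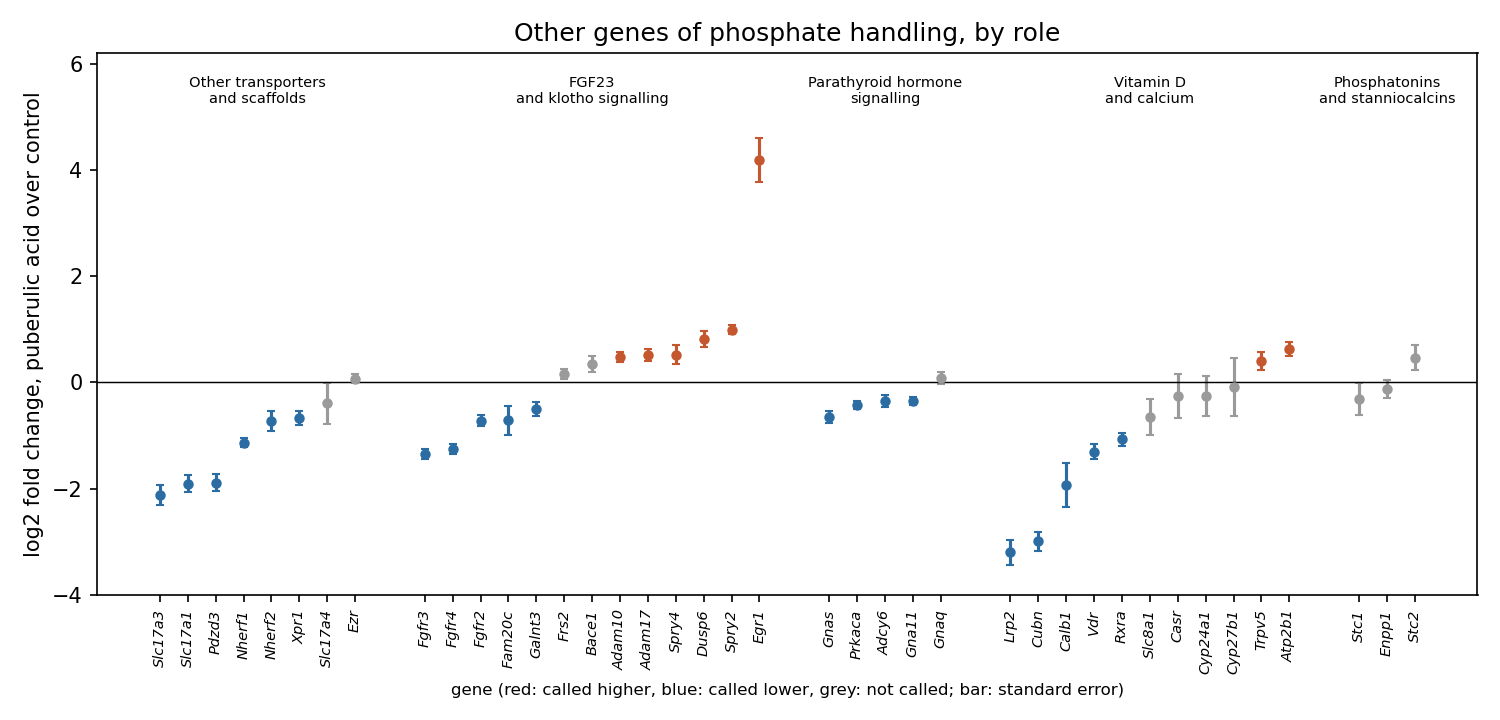
Log2 fold changes, puberulic acid over control, of the 40 tested genes of the wider phosphate list by role, with standard errors, in red where called higher, blue where called lower and grey where not called. Egr1 stands highest at 4.19, and Lrp2 and Cubn stand lowest at -3.20 and -2.99.

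Behind the parathyroid hormone receptor, 4 of 5 tested signalling genes fell by small amounts, where 31.1% of all genes tested were called lower. Gnas, Gna11, Prkaca and Adcy6, which encode G protein subunits, the catalytic subunit of protein kinase A and an adenylyl cyclase, had log2 fold changes of -0.65, -0.35, -0.42 and -0.35. With total-count scaling all 4 lost the call and Gna11, Prkaca and Adcy6 changed sign, to 0.16, 0.084 and 0.15. Gnaq, the fifth gene tested, went from 0.084 (edgeR adjusted p = 0.538) to 0.60 (adjusted p = 0.00066), so that the list then held 1 gene called higher and 0 called lower. Pth had at most 1 count in any library. Pth2r, the gene of a related receptor, had 0 counts in all controls and 1, 28, 29, 21 and 16 counts in puberulic acid replicates 1 to 5. It did not pass the count filter with all samples. It was called higher where no filter was used (edgeR adjusted p = 0.000842), in DESeq2 (adjusted p = 3.19e-06), without any 1 of the controls (edgeR adjusted p from 0.00551 to 0.00627) and without puberulic acid replicate 1 (adjusted p = 0.000123). With the controls all at 0 its fitted fold change is not given.

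Of the 11 vitamin D and calcium genes 5 fell and 2 rose, a share near that of all genes tested, of which 65.3% were called, 31.1% lower and 34.2% higher. Vdr, the vitamin D receptor gene, and Rxra, its partner, fell with log2 fold changes of -1.30 and -1.07. Lrp2 and Cubn, whose products take filtered vitamin D with its binding protein into proximal tubule cells, fell by 3.20 and 2.99. Calb1, the calcium-binding protein gene of the distal tubule, fell from 456 ± 99.5 to 120 ± 99.2 CPM (n = 5 per group, SD), with 294.7 CPM in puberulic acid replicate 1 and 54.0 to 93.3 CPM in replicates 2 to 5. Its log2 fold change was -1.93 with all samples and -2.60 without replicate 1. The 2 enzymes on which FGF23 and parathyroid hormone act did not pass the test. Cyp27b1, which makes active vitamin D, was at 4.61 ± 3.60 and 4.32 ± 3.33 CPM, and Cyp24a1, which breaks it down, at 162 ± 75.7 and 136 ± 43.0 CPM (n = 5 per group, SD), with edgeR adjusted p-values of 0.895 and 0.561. Control replicate 5 had 40.1 CPM of Cyp24a1, against 153.5 to 233.7 CPM in the other controls. Leaving out single samples gave Cyp24a1 log2 fold changes from -0.52 to -0.099 (edgeR adjusted p from 0.0523 to 0.833). The plasma membrane calcium pump gene Atp2b1 rose by 0.63 on the log2 scale, while the calcium channel gene Trpv5, at 0.41 (adjusted p = 0.047), was close to the threshold: total-count scaling gave 0.92 (adjusted p = 0.000405), no filter gave 0.40 (adjusted p = 0.0637), DESeq2 gave 0.39 (adjusted p = 0.0543), RLE factors gave 0.40 (adjusted p = 0.051), the replicate block gave 0.41 (adjusted p = 0.0561), and without control replicate 1, 3 or 4 or puberulic acid replicate 1, 2, 3 or 5 it was 0.32 to 0.41 (adjusted p from 0.0655 to 0.113). The calcium-sensing receptor gene Casr and the exchanger gene Slc8a1 were not called with all samples (edgeR adjusted p = 0.601 and 0.116), and both were called lower without puberulic acid replicate 1 (-0.95, adjusted p = 0.00282, and -1.11, adjusted p = 0.00142).

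Of the 8 phosphatonin and stanniocalcin genes, 3 had enough reads to be tested, and 0 of these 3 passed in edgeR or in DESeq2, nor at an unadjusted edgeR p under 0.05. Enpp1, Stc1 and Stc2 had log2 fold changes of -0.12, -0.31 and 0.46 with edgeR adjusted p-values of 0.542, 0.393 and 0.104. Enpp1, which makes the mineralization inhibitor pyrophosphate, was called lower without puberulic acid replicate 1 (-0.34, adjusted p = 0.0173). Stc2 was called higher with total-count scaling (0.97, adjusted p = 0.00333) and without control replicate 4 (0.60, adjusted p = 0.0445). Of the 5 genes that did not pass the count filter, Fgf7, a growth factor gene, had 0 to 4 counts in the controls and 7 to 18 with puberulic acid. Fgf7 was called higher in DESeq2 (1.97, adjusted p = 0.00733), with no filter in edgeR (1.93, adjusted p = 0.0165), without any 1 of the controls (1.63 to 2.35, edgeR adjusted p from 0.00463 to 0.0203) and without puberulic acid replicate 1 (2.07, adjusted p = 0.004). Phex and Dmp1, with at most 10 and 3 counts in any library, were called higher in edgeR with no filter only (adjusted p = 0.0415 and 0.0232).

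Markers of cell types are given beside these results, and 31.1% of all genes tested were called lower and 34.2% higher. The immune, loop of Henle, podocyte and endothelial counts lie not far from or under these shares, and nothing particular is drawn from them. All 10 proximal tubule markers fell, with a median log2 fold change of -3.27 and a range from -4.96 to -1.66, and none was at 0 in the controls. Without puberulic acid replicate 1 the lowest, Slc22a6, went from -4.96 to -5.67 and Slc5a12 from -2.64 to -3.72. Their summed level went from 11320 to 14600 CPM to 1040 to 2034 CPM. Slc34a1, at -5.36 ± 0.55, had a lower fold change than each of the 10, the nearest being Slc22a6 at -4.96 ± 0.49 (SE). Pdzk1, at -2.61, lay above the median of the list. Pth1r, at -1.61 ± 0.13, lay above all 10, the nearest being Aqp1 at -1.66 ± 0.13 (SE). Slc34a1 and Pth1r differed from these nearest markers by less than the standard errors, so their places at the ends are not settled. In whole kidney RNA, fewer proximal tubule cells and less RNA per cell cannot be told apart. Of the 5 distal convoluted tubule markers, 4 fell, among them Slc12a3 (-0.76, edgeR adjusted p = 0.0189), Calb1 (-1.93) and Pvalb (-4.18, and -5.68 without puberulic acid replicate 1), and their sum went from 1119 to 1621 CPM to 417 to 1109 CPM, with replicate 1 at 1109 CPM and replicates 2 to 5 at 417 to 565 CPM. The marker that did not fall, Trpm6, was not called (0.27, edgeR adjusted p = 0.266). With total-count scaling Trpm6 was called higher (0.77, adjusted p = 0.00446), 2 of these 5 were called lower and Slc12a3 was not called (-0.25, adjusted p = 0.38). Kl, at -2.35, lay within the range of both lists, which for the distal convoluted tubule reached from -4.18 to 0.27. For Fgfr1, which fibroblasts also express, 5 of 6 fibroblast and pericyte markers rose, from a summed 112.6 to 178.8 CPM to 497 to 1822 CPM. Of 7 tested immune markers 3 rose (5 with total-count scaling or without puberulic acid replicate 1), where 34.2% of all genes tested were called higher. The sum of the immune list went from 68.7 to 126.3 CPM to 129.8 to 344.9 CPM. Adgre1 was not called with all samples (1.33, edgeR adjusted p = 0.0564) but was in other settings, among them without control replicate 4 (2.33, adjusted p = 0.00021). Cd79a, which did not pass the count filter, was called lower in DESeq2 (-1.11, adjusted p = 0.0271) and in edgeR with no filter (-1.08, adjusted p = 0.0401). Of the 4 loop of Henle markers 2 fell and of the 6 collecting duct markers 5 fell, with medians of -0.54 and -1.36. With total-count scaling the loop list had 0 lower and 2 higher (Umod and Cldn16) and the collecting duct list 3 lower. All 6 collecting duct markers were called lower without puberulic acid replicate 1 and with the replicate block, where Slc4a1 went from -1.37 (edgeR adjusted p = 0.151) to -3.30 (adjusted p = 5.81e-06) and -2.74 (adjusted p = 0.013). The loop marker Slc12a1 (-1.20, edgeR adjusted p = 0.0333) also lost its call in DESeq2 (adjusted p = 0.0532) and without control replicate 1, 3 or 4 or puberulic acid replicate 2, 3, 4 or 5 (adjusted p from 0.0514 to 0.0724). It was -1.89 without puberulic acid replicate 1. The sums of the 4 podocyte and 5 endothelial markers overlapped between the groups, at 195 to 424 and 68.5 to 350 CPM for podocytes and at 173 to 277 and 95.4 to 236 CPM for endothelium. In each of these lists 1 marker was called lower, with 0 under total-count scaling and, over all alternatives, 0 to 1 for podocytes and 0 to 2 for endothelium. The part of cell make-up in the changes of the 9 genes was not tested.

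The spread between samples differed among the 9 genes. With puberulic acid the coefficient of variation was 148% for Slc34a3, 97.5% for Slc34a1, 59.5% for Kl, 51.8% for Slc34a2 and 32.7% for Pdzk1, and 4.76% to 16.5% for Slc20a1, Slc20a2, Fgfr1 and Pth1r. Over replicates 2 to 5 alone it was 55.2% for Slc34a3, 26.6% for Slc34a1, 26.9% for Kl, 33.1% for Slc34a2 and 11.5% for Pdzk1, and 4% to 10.9% for the other 4. In the controls it was 58.3% for Slc34a3, 31.2% for Slc34a2 and 4.44% to 19% for the other 7. Replicate 1 gave the highest treated value for Slc34a1, Slc34a3, Pdzk1, Kl, Pth1r and Slc20a2 and the lowest for Slc34a2 and Fgfr1.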

How the data were processed

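The deposited table gives estimated counts per gene for 20 sample columns, as the authors made them. Per the submitters' processing notes, fastp 0.22.0, Salmon 1.10.3, FastQC 0.12.1, MultiQC 1.28, DESeq2 and the build GRCm39 were named, with no role given. How transcript estimates were summed to genes, and whether strand was used, is not given in the sources used here, so reads of overlapping genes on opposite strands (such as Pfn3 in Slc34a1 and Myl3 in Pth1r) may not be told apart. Per the labels, libraries were poly(A)-selected and strand-specific. The 10 columns whose names do not show their group were used in no step. Symbols matched 51344 of 55822 identifiers, which hold 99.3% of the counts.

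Counts were rounded, filtered with filterByExpr, scaled with TMM and tested with glmQLFit and glmQLFTest (edgeR 4.0.16, limma 3.58.1, R 4.3.3) on 5 control and 5 puberulic acid samples. Standard errors were derived from the F statistic (absolute log2 change over root F). Ratios used counts plus 0.5. The 3-count floor is 0.0964 to 0.195 CPM per library and covers counting error only. The script was tested on simulated data. No 2 libraries of a group agreed within sampling noise (chi-square per degree of freedom at least 12.6). All 9 genes, the wider phosphate list, the marker lists and, for Slc34a1, Kl and Slc20a1, the 5 genes of nearest pattern were named by rule, and the genes and lists were chosen with earlier results of these data known. Alternatives were RLE and total-count scaling, testing without a filter or with one of 1 CPM in 5 or more samples, DESeq2 1.42.0, a replicate block, a pseudocount of 5 for ratios and leaving out each sample. Shares per kilobase were added after seeing the data.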

Additional observations from a re-analysis of the deposited data

Results flagged for a closer look

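A sample was singled out within its group of 5 when the gap between it and its nearest neighbour was more than 0.71 of the whole range (the critical value of Dixon). This was so in 8 of 40 sets of 5 values. Chance alone gives about 2 in 40 independent sets, and these sets share genes and libraries.

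Puberulic acid replicate 1 gave 5 of the 8. It was the highest of its group for Slc34a1, at 319.1 CPM against 51.2 to 85.4 CPM, for Slc34a3, at 17.6 CPM against 0.974 to 2.99 CPM, and for Pdzk1, at 331.6 CPM against 159.4 to 207.6 CPM. Its share of Slc34a3 in the cotransporter counts was the highest, at 3.446% against 0.309% to 1.07%, and its share of Slc20a1 the lowest, at 19.5% against 31.3% to 34.1%. In the same library the injured tubule sum was 1593 CPM against 1914 to 2832 CPM in replicates 2 to 5. The cause was not tested.

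Control replicate 1 had the lowest log2 ratio of Slc34a1 to Slc20a1 of the controls, at 6.821 against 7.57 to 7.671, and the highest share of Slc20a1, at 0.859% against 0.479% to 0.514%. Control replicate 5 had the highest log2 ratio of Kl to Pth1r, at 0.263 against -0.164 to -0.0754 in the other controls.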

How the results depend on the processing

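Over 16 alternative settings the 9 genes gave 144 values, of which 142 kept direction and call and 2 gained a call (Slc20a2, with total-count scaling and without control replicate 2). The log2 fold changes ran from -6.20 to -4.86 for Slc34a1, from -4.75 to -2.71 for Slc34a3, from 4.602 to 5.36 for Slc34a2, from -2.80 to -1.84 for Kl and from 0.22 to 0.79 for Fgfr1. The smallest decreases and the largest rises came from total-count scaling. That scaling, which moved the median of all genes from 0.046 to 0.56, called 9179 genes higher and 2526 lower in place of 5564 and 5058, and 13 and 11 genes of the wider phosphate list in place of 8 and 20. With it 10 of its genes changed sign: Slc17a4 to 0.11, Galnt3 to 0.012, Gna11 to 0.16, Prkaca to 0.084, Adcy6 to 0.15, Cyp27b1 to 0.41, Cyp24a1 to 0.25, Casr to 0.24, Enpp1 to 0.39 and Stc1 to 0.20. Leaving out single samples, Cyp27b1 ran from -0.72 (without puberulic acid replicate 1) to 0.45 (without control replicate 5), with 0.017, 0.027 and 0.026 without puberulic acid replicates 2, 4 and 5. The 6 ratios kept direction and call with a pseudocount of 5 and without each sample, with adjusted exact permutation p-values from 0.00952 to 0.0317. Without puberulic acid replicate 1 the difference in the share of Slc34a3 turned from 0.282 to -0.291 percentage points, and over all left-out samples it ran from -0.291 to 0.493. Same-numbered samples did not deviate together (correlations from -0.172 to 0.039, and 0 of 5 correlated best with its own number). With the replicate block 5416 genes were called higher and 4909 lower, and the same number of the 9 genes, 3 higher and 5 lower. Depth limits Slc34a2 in the controls, at 19 to 49 counts per library.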
